A study of Homo sapiens with 6 samples.

Results

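The 33 genes described here encode the enzymes and carriers of glycolysis, gluconeogenesis, glucose uptake, lactate export and glycogen turnover. They were chosen by role and matched by symbol to a table of 20026 human genes, in which each of the 33 was found. In every comparison 29 of the 33 passed the filter on low counts and were tested. HK1, LDHB and FBP1 had fewer than 10 counts in each library, and the liver glycogen synthase GYS2 had at most 17, so these 4 were not tested.

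The cells were HepG2, a human liver cancer line, after the sample titles and the cell line label. The wording of the deposited cell type label differs from these. miR-23a and miR-27a are microRNAs of the same cluster, and the study edited the gene of either with CRISPR/Cas9 and paired guide RNAs to learn what each does in liver cancer cells. RNA-seq was done on 6 libraries of poly(A) RNA, 2 for each of 3 groups. The groups were Scr (HepG2 with the scramble control, labelled as wild type), miR-23a KO and miR-27a KO. KO cells were grown from sorted single cells, and whether the libraries of a group came from separate clones or cultures is not stated. P-values thus measure only the spread between libraries, which may be technical. Columns of the table the authors deposited are named FPKM, and its values were read as counts, an inference on which every test rests. The depth was 14891239 and 14405250 counts in the Scr pair, 16515261 and 15930779 in the miR-23a KO pair, and 15850589 and 15947308 in the miR-27a KO pair. Levels of the microRNAs of the cluster were not analysed here, so each group is named by its edited gene after the deposited labels, and effects of the edits on other microRNAs of the cluster cannot be told apart.

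Glycolysis splits glucose into pyruvate, and gluconeogenesis, a task of liver and kidney, rebuilds glucose from lactate, pyruvate and amino acids. Liver cancer cells commonly use isoenzymes and carriers that adult hepatocytes hold at low levels, such as HK2, PKM and SLC2A1. A mature microRNA pairs through its seed with sites in the 3'-UTR of messenger RNAs and lowers their stability or translation.

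The mature sequences of the edited microRNAs are shown because their seeds define which members hold a match. They come from RefSeq on GRCh38.p14, minus strand, at chr19:13836595-13836615 for miR-23a-3p and chr19:13836447-13836467 for miR-27a-3p, with the seed (bases 2 to 8) in capitals.
miR-23a-3p: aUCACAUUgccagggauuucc
miR-27a-3p: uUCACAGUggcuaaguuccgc
The 7 bases AATGTGA, which pair with the seed of miR-23a-3p, occurred in the annotated 3'-UTR of 5 of the 33 members (15.2%; 19.3% of 15888 genes). These were PFKFB4, ENO2, LDHB, PCK2 and SLC2A1. The 7 bases ACTGTGA, the match of miR-27a-3p, occurred in PFKL, PFKFB4 and LDHA (9.09%; 16.7% of genes). The median 3'-UTR had 765 bases in members and 1224 over the 15888 genes. Matches in 3 members described further on are shown as DNA of the coding strand with the match in capitals, from GENCODE release 29 on GRCh38. PFKL lies on the plus strand at chr21:44327272-44327301, PFKFB4 on the minus strand at chr3:48519389-48519418 and chr3:48519717-48519746, and SLC2A1 on the minus strand at chr1:42925839-42925868.
PFKL, match of miR-27a-3p: tggccctgcctcACTGTGAcctgctcctgc
PFKFB4, match of miR-23a-3p: gtgaaaccctacAATGTGAaaggaaagtgc
PFKFB4, match of miR-27a-3p: ccatgttcatccACTGTGAccactaggcag
SLC2A1, match of miR-23a-3p: tgcattattttgAATGTGAagtaaatactg
Whether any of these matches is used in HepG2 cells was not measured.

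Levels between genes were compared as CPM (the share of the TMM-scaled library total) per kilobase of the longest annotated protein-coding transcript. In Scr the most abundant members were the lower glycolytic enzymes GAPDH (mean 3111 CPM per kb), ENO1 (2343) and ALDOA (1195). Pyruvate kinase PKM (609), TPI1 (541), lactate dehydrogenase LDHA (457) and PGAM1 (391) came next. The Scr libraries of GAPDH, ENO1 and ALDOA did not overlap with each other, with ranges of 2937 to 3286, 2099 to 2587 and 1051 to 1338 CPM per kb. Of the glucose carriers, SLC2A1 (116 CPM per kb) and SLC2A3 (63.9) stood far above the hepatocyte carrier SLC2A2 (3.53). Of the member hexokinases, HK2 was at 11.4 CPM per kb and HK1 at 0.0778, and HKDC1, a hexokinase outside the 33 genes, was tested in the pathway lists. PCK2, the mitochondrial phosphoenolpyruvate carboxykinase (PEPCK), was at 66.8 CPM per kb and PCK1, the cytosolic form, at 1 CPM per kb. Fructose bisphosphatase FBP1 was near the limit of detection, at 0.277 CPM per kb. LDHB, the other widely used lactate dehydrogenase, stood at 0.158. GAPDH, PGAM1 and SLC2A3 have near-identical copies or pseudogenes, and how reads shared with them were counted is not stated, so their levels are uncertain to that extent.

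**Figure D1:**
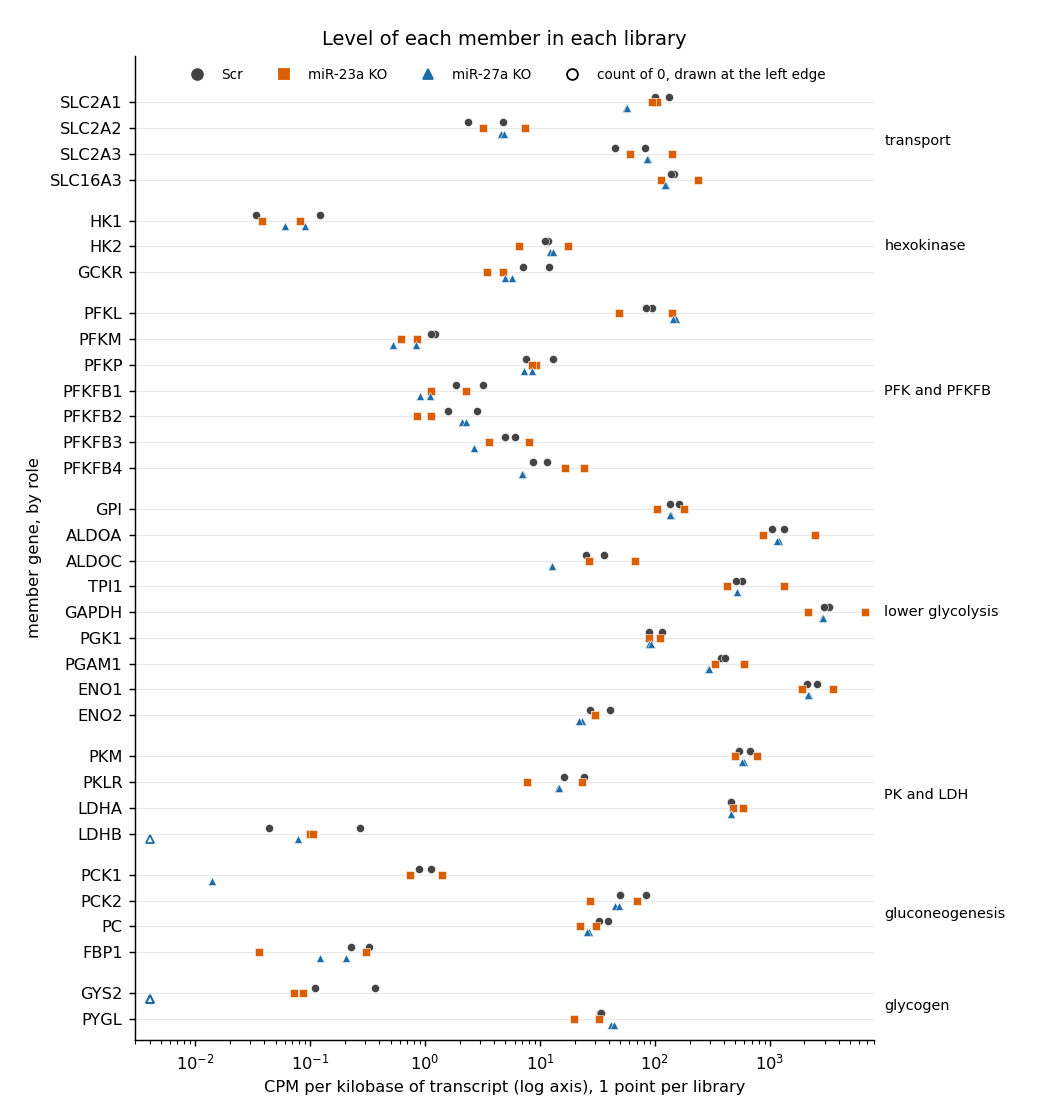
Level of the 33 members, by role, in CPM per kilobase of transcript on a log axis, with 1 point per library (circles Scr, squares miR-23a KO, triangles miR-27a KO). GAPDH, ENO1 and ALDOA are the highest, PCK1 in miR-27a KO lies far to the left of the other groups, and open symbols at the left edge stand for counts of 0.

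The libraries of a pair differed to very unequal degrees. Among genes whose pair summed to at least 20 counts, 5.53% differed more than 2-fold between the Scr libraries, 43.9% between the miR-23a KO libraries and 1.16% between the miR-27a KO libraries. Among members, 12 of 29 were over 2-fold apart in miR-23a KO, with a largest difference of 1.65 log2 units for GAPDH, and 0 of 30 in Scr and 0 of 28 in miR-27a KO. GAPDH took 0.996% and 0.465% of all counts in the miR-23a KO libraries, 0.595% and 0.566% in Scr, and 0.555% and 0.565% in miR-27a KO. All 33 members together took 3.02% and 2.08% of the counts in miR-23a KO, 2.33% and 2.1% in Scr, and 2.17% and 2.16% in miR-27a KO. In miR-23a KO the members with more GC-rich transcripts tended to be higher in replicate 1 and those with GC-poor transcripts in replicate 2, with exceptions such as PGK1 (43.3% GC, 0.31 log2 units higher in replicate 1) and PFKFB3 (55.7% GC, -1.11). Spearman's rho between the replicate difference and GC content, across genes that are not independent of each other and share the same libraries, was 0.70 over 29 members and 0.68 over 13040 genes. The same value was 0.36 over 30 members and 0.47 over 13060 genes in Scr, and 0.39 over 28 members and 0.10 over 12921 genes in miR-27a KO. The mean squared difference of the miR-27a KO pair was 2.49 times the sampling noise over 13532 genes. It was 30.5 times the noise in Scr and 384 times in miR-23a KO. The libraries of each pair were counted as separate, but these ratios cannot show that they are, because sampling noise covers counting error only.

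**Figure D2:**
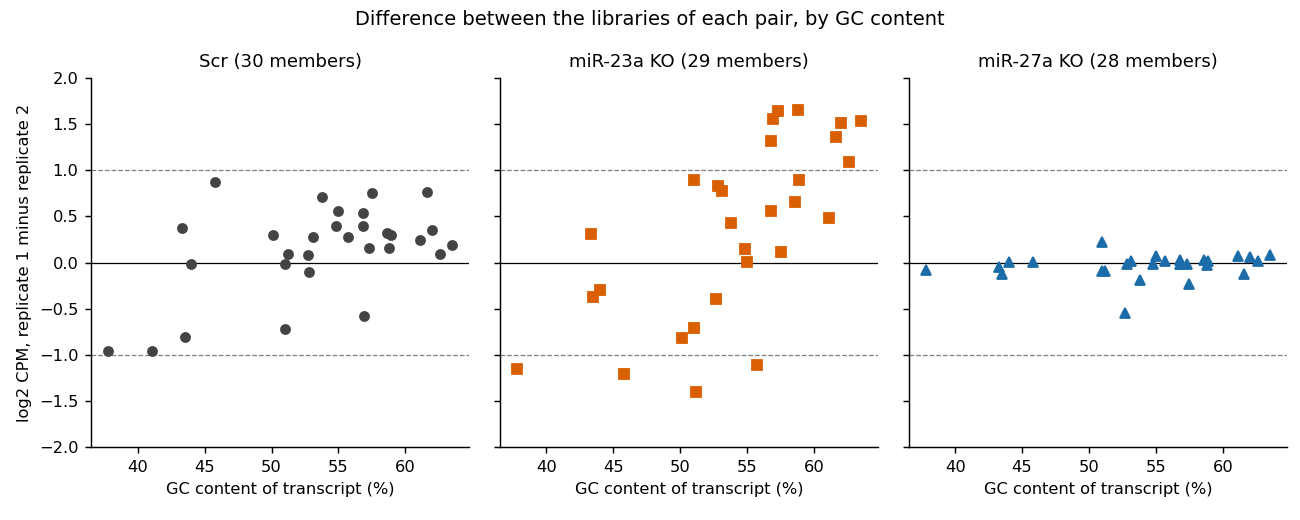
Difference in log2 CPM between replicate 1 and replicate 2 of each group, for the members with at least 20 counts in the pair, against GC content of the transcript in percent. Dashed lines mark a 2-fold difference, which 12 of 29 members pass in miR-23a KO, 0 of 30 in Scr and 0 of 28 in miR-27a KO.

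Liver markers were present in each library. All 10 (ALB, AFP, APOA1, APOA2, APOB, TTR, SERPINA1, FGB, TF and HNF4A) had at least 10 counts in each library, with a summed level of 32636 and 40223 CPM in Scr, 36036 and 34005 for miR-23a KO, and 27579 and 27473 for miR-27a KO, and SERPINA1 as the highest on average. Within the list AFP stood at 2591 and 3916 CPM in Scr, 3810 and 6520 for miR-23a KO, and 185 and 192 for miR-27a KO. Albumin (ALB) was at 10426 and 15120, 7903 and 14614, and 2089 and 2152 CPM. These were thus lower in the miR-27a KO libraries than in the other 4. In the same order TF was at 3319 and 2268, 2370 and 2067, and 6551 and 6750 CPM, SERPINA1 at 10749 and 11030, 11784 and 4639, and 12769 and 12478, and HNF4A at 341 and 363, 374 and 224, and 411 and 421. These 3 were highest in miR-27a KO, so the liver list did not move in a single direction, and its part in the results on sugar metabolism was not tested. Markers of other cell types were near 0. The fibroblast marker COL1A1 had at most 2 counts in a library (COL1A2, COL3A1, DCN and LUM are not in the table), the leukocyte marker PTPRC at most 2, the endothelial list (PECAM1, CDH5, VWF) summed to at most 6.84 CPM and the leukocyte list (PTPRC, CD14, CD3E, CD79A) to at most 3.48 CPM, led by PECAM1 and CD14.

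The first question was how these genes in miR-27a KO cells differ from Scr. In miR-27a KO the carrier SLC2A1, the regulator enzyme PFKFB3, the glycolytic enzymes ALDOC and PGAM1 and the gluconeogenic enzyme PCK1 fell against Scr, and the liver phosphofructokinase PFKL rose. These were 5 of 29 members lower (17.2%) and 1 higher (3.45%) at an adjusted p under 0.05 by edgeR with Benjamini-Hochberg adjustment, against 9.12% of the 13820 genes tested called lower and 4.91% called higher. By position alone, both miR-27a KO libraries lay below both Scr libraries for 15 members (31.9% of all genes tested) and above for 4 (32.4% of all genes). The median log2 fold change of the members tested was -0.21 (-0.19 without PCK1, whose fitted value depends on the prior count), against 0.01 over all genes, and 24 of 29 were negative. With GC content and length corrected 17 of 29 were negative (median -0.15), and 17 of 29 without Scr replicate 1 (median -0.08). At the thresholds of the study, an adjusted p under 0.001 with over 1.5-fold, 0 members and 0.0289% of genes were called. Here and below these cut-offs were applied to the edgeR test, while the study names no test for its q-values. Such counts are thus not those of the study's own lists.

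The calls in miR-27a KO depended on how its libraries entered the fit. Without either miR-27a KO library, when the remaining one is assumed to vary like Scr, only PCK1 was called, while 0.586% and 1.93% of all genes were higher and lower without replicate 1, and 0.608% and 1.92% without replicate 2. The same member alone was called with both miR-27a KO libraries averaged into 1, an alternative chosen after seeing the data (0.543% of all genes higher and 1.76% lower). With all 6 libraries in the fit, which then share the spread of miR-23a KO, PCK1 was again the sole member called (0.0212% of all genes higher and 0.431% lower). Without Scr replicate 1 the counts were 6 higher and 12 lower, and without Scr replicate 2 they were 4 higher and 19 lower, while 19.7% and 25% of all genes were called higher and 21.4% and 27.3% lower.

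**Figure D3:**
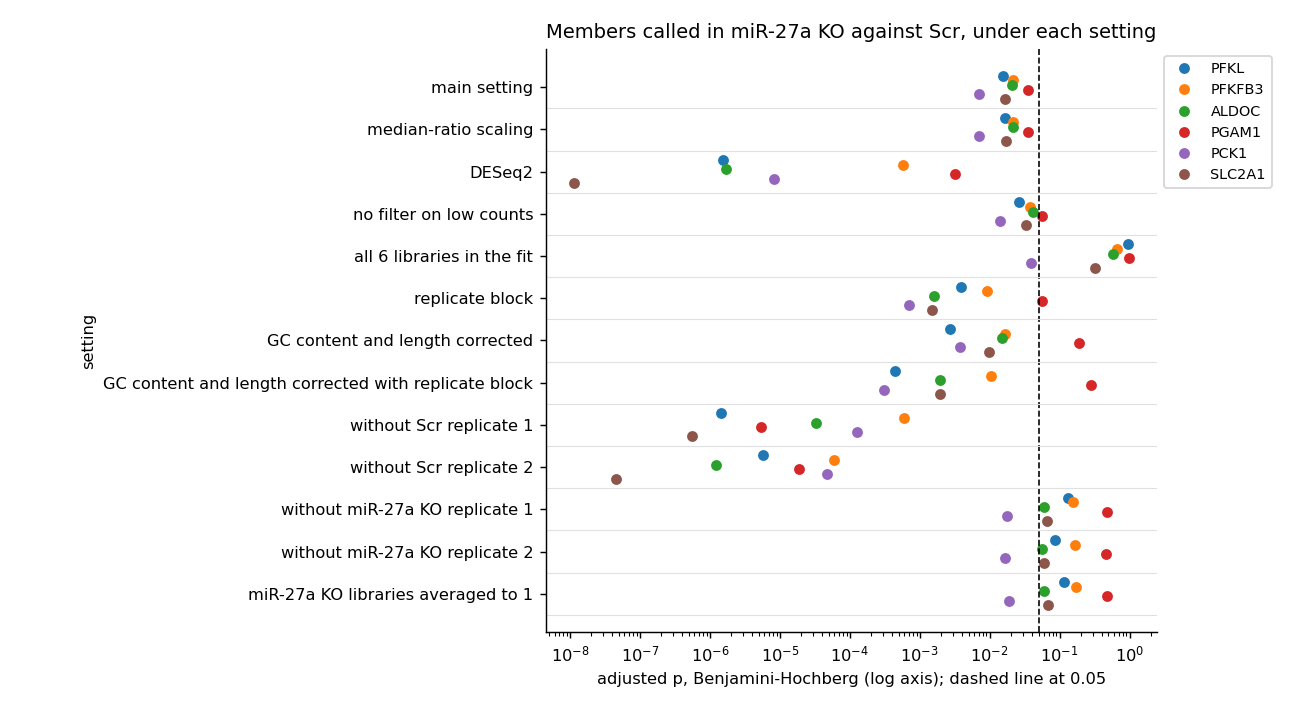
Adjusted p (log axis) of the 6 members called in miR-27a KO against Scr, in the main setting and under 12 alternatives, with the threshold of 0.05 as a dashed line. PCK1 is left of the line in every setting shown, and the other 5 lie to its right with either miR-27a KO library left out, with that pair averaged, and with all 6 libraries in the fit.

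The question asked of miR-23a was the same, and no member passed the test. By edgeR with Benjamini-Hochberg adjustment 0 members were higher and 0 lower, as were 0% and 0% of 13786 genes. An unadjusted p under 0.05 was reached by 1 member higher (PFKFB4; 0.856% of genes) and 0 lower (1.55% of genes). DESeq2 called 0 members in either direction (0.029% of genes higher, 0.428% lower), and the thresholds of the study gave 0 members and 0% of genes. PFKFB4 and LDHA lay above both Scr libraries in both miR-23a KO libraries (8.88% of all genes did), and GCKR, PFKM, PFKFB2, PC and PYGL lay below (14.9% of all genes). The median log2 fold change was 0.12 for the members and 0.16 for all genes. Each miR-23a KO library on its own gave other calls: without replicate 1, SLC2A3 was higher and PFKL, PKLR and PCK2 lower (6.04% and 4.05% of genes), and without replicate 2, PFKL, PFKFB4, ALDOA, ALDOC, TPI1, GAPDH and SLC16A3 were higher and HK2 and PYGL lower (12.5% and 7.42%). PFKL thus changed sides with the library kept.

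The KO groups were also set directly against each other, a comparison that uses no Scr library. By edgeR with Benjamini-Hochberg adjustment 0 members were higher and 0 lower in miR-23a KO than in miR-27a KO, as were 0% and 0% of 13841 genes. At an unadjusted p under 0.05, PFKFB4, ALDOC and PCK1 were higher (4.66% of genes) and PFKFB2 was lower (4.06% of genes). DESeq2 called ALDOC and PCK1 higher (1.87% of genes) and 0 members lower (1.58% of genes), and the study's thresholds gave 0 members and 0% of genes. The miR-27a KO pair was exceeded by both miR-23a KO libraries for 9 members (18.7% of all genes) and undercut by both for 4 (20.7%). The median log2 fold change was 0.21 in members and 0.11 over all genes. Without miR-23a KO replicate 1 the test called 11 members higher and 14 lower (30.5% and 30.8% of all genes), and without replicate 2 it called 19 higher and 5 lower (34.3% and 35.4%). In those fits the spread comes from the close miR-27a KO pair alone, so a call there was not read as support for a difference. Both KO comparisons with Scr share the Scr libraries, so their values were not correlated with each other.

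**Figure D4:**
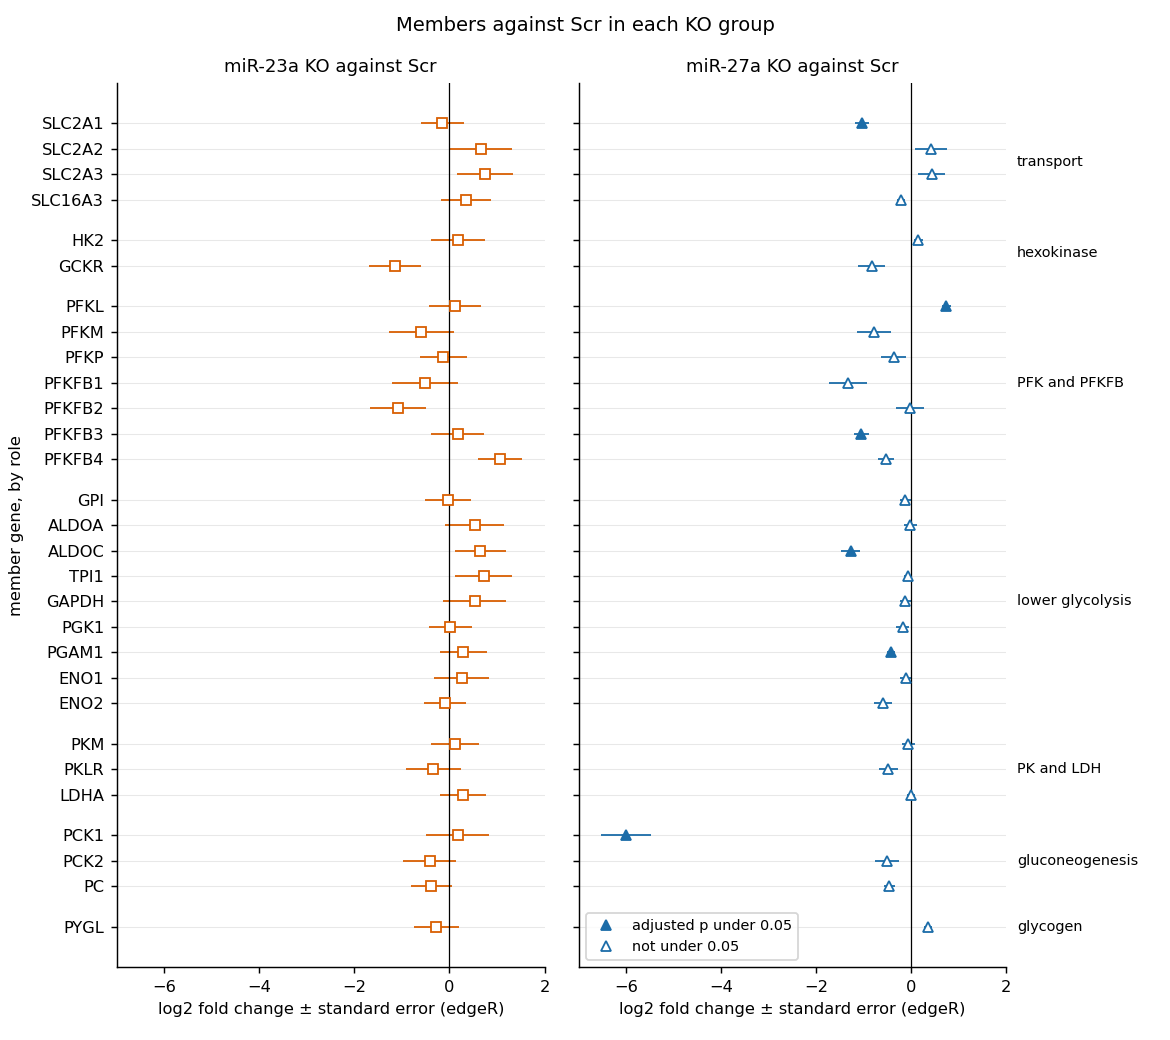
Log2 fold change (edgeR) with its standard error for the 29 members tested, by role, in miR-23a KO (squares, left) and miR-27a KO (triangles, right) against Scr. Filled symbols mark an adjusted p under 0.05, which 6 members reach in miR-27a KO and 0 in miR-23a KO. Error bars are longer on the left, where the libraries of the KO pair lie further apart.

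Glucose enters cells through the SLC2A carriers and lactate leaves through SLC16A3. SLC2A1, the carrier of most cancer cells, was at 483 and 366 CPM in Scr, 386 and 347 for miR-23a KO, and 206 and 208 for miR-27a KO. Both miR-27a KO libraries lay below the other 4, while the miR-23a KO libraries overlapped with Scr. SLC2A1 fell by 1.04 on the log2 scale in miR-27a KO (standard error 0.15, adjusted p = 0.0166 by edgeR with Benjamini-Hochberg, lower in 2 of 2 libraries). Its adjusted p over the 12 alternatives ran from 1.13e-08 to 0.325, and it was 0.0659 and 0.06 without miR-27a KO replicate 1 or 2 (edgeR or DESeq2 with Benjamini-Hochberg). In miR-23a KO its log2 fold change was -0.15 (standard error 0.45), and between the KO groups it was 0.83 (0.33), with an adjusted p of 0.592 by edgeR with Benjamini-Hochberg. The latter was 0.75 and 0.90 with miR-23a KO replicate 1 or 2 left out. SLC2A3, a carrier with high affinity for glucose, was at 324 and 177 CPM in Scr, 236 and 547 for miR-23a KO, and 338 and 337 for miR-27a KO. The groups overlapped in miR-23a KO, and its log2 fold changes were 0.74 (standard error 0.59) for miR-23a KO and 0.43 (0.28) for miR-27a KO, both not called. Without Scr replicate 1 the latter was 0.94 and was called, but 0.05 and not called without Scr replicate 2. Without miR-23a KO replicate 1 the former was 1.18 and was called, but -0.09 and not called without replicate 2. SLC2A3 shares long stretches with SLC2A14, so either count may hold reads of the other. SLC2A2 and SLC16A3 were not called, at log2 fold changes of 0.42 and -0.21 in miR-27a KO and 0.67 and 0.35 in miR-23a KO. In miR-27a KO SLC2A2 was at 0.01 without Scr replicate 1 and at 1.01, and called, without Scr replicate 2, and SLC16A3 was called with either Scr library left out (-0.16 and -0.26) but was at 0.07 with GC content and length corrected. For miR-23a KO, SLC2A2 was at 1.10 and -0.13 without replicate 1 or 2 of that group, and SLC16A3 at -0.29 and 0.75, the last of which was called.

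Hexokinase traps glucose in the cell as glucose 6-phosphate. HK2 had log2 fold changes of 0.18 (standard error 0.56) for miR-23a KO and 0.15 (0.09) for miR-27a KO, neither called. The former was 0.68 and -0.78 without miR-23a KO replicate 1 or 2, and the second of these was called. The latter was 0.21, and called, without Scr replicate 1. GCKR, which holds the liver hexokinase glucokinase inactive in the nucleus, was at 25.9 and 15.6 CPM in Scr, 10.4 and 7.59 for miR-23a KO, and 10.9 and 12.5 for miR-27a KO. All 4 KO libraries lay below both Scr libraries. The log2 fold changes of GCKR were -1.15 (standard error 0.55) for miR-23a KO and -0.83 (0.28) for miR-27a KO, with adjusted p-values of 1 and 0.108 by edgeR with Benjamini-Hochberg. Without Scr replicate 1 the log2 fold change in miR-27a KO was -0.41 and not called. Without Scr replicate 2, the lower of the pair, it was -1.15 and its adjusted p was 0.000131, the lowest of its 12 alternatives, whose highest was 0.755 (edgeR or DESeq2 with Benjamini-Hochberg).

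The phosphofructokinase step commits sugar to glycolysis, and PFKFB enzymes make and break fructose 2,6-bisphosphate, its strongest activator. PFKL, the liver isoform, was at 275 and 242 CPM in Scr, 408 and 141 for miR-23a KO, and 444 and 419.6 for miR-27a KO. Both miR-27a KO libraries were the highest of the 6, and the miR-23a KO libraries lay on either side of Scr. PFKL rose in miR-27a KO by 0.74 log2 units (standard error 0.1, adjusted p = 0.0153 by edgeR with Benjamini-Hochberg, higher in 2 of 2 libraries). Its adjusted p was 0.131 and 0.0872 without miR-27a KO replicate 1 or 2, in a range of 1.45e-06 to 0.948 over 12 alternatives (edgeR or DESeq2 with Benjamini-Hochberg). Set against miR-27a KO, miR-23a KO was at -0.65 on the log2 scale for PFKL (standard error 0.59), and that difference was not called (adjusted p = 0.836 by edgeR with Benjamini-Hochberg). It was -1.61 with miR-23a KO replicate 1 left out and -0.08 with replicate 2 left out. Of the 6 called members PFKL alone has the match of miR-27a-3p in its 3'-UTR. The other members with that match, PFKFB4 and LDHA, were at -0.53 and -0.00 on the log2 scale in miR-27a KO, neither called. The part of the match in these results was not tested.

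PFKFB3, the isoform with the highest kinase activity and a known driver of glycolysis in growing cells, was at 27.3 and 22.4 CPM in Scr, 16.4 and 36.1 for miR-23a KO, and 12.1 and 12 for miR-27a KO. Values in miR-27a KO lay below the other 4, with those of miR-23a KO on both sides of Scr. PFKFB3 fell by 1.05 on the log2 scale in miR-27a KO (standard error 0.16, adjusted p = 0.0214 by edgeR with Benjamini-Hochberg). Without miR-27a KO replicate 1 or 2 its adjusted p was 0.157 and 0.166, in a range of 5.96e-05 to 0.655 over 12 alternatives (edgeR or DESeq2 with Benjamini-Hochberg). The difference of PFKFB3 between the KO groups was 1.13 log2 units (standard error 0.49) and not called, at an adjusted p of 0.631 by edgeR with Benjamini-Hochberg. With miR-23a KO replicate 1 or 2 left out it was 1.59 and 0.45. PFKFB4, an isoform also common in tumours, was at 41.4 and 31.2 CPM in Scr, 87 and 59 for miR-23a KO, and 25.5 and 24.9 for miR-27a KO. The groups did not overlap, with miR-23a KO above and miR-27a KO below Scr. Neither comparison with Scr called PFKFB4, at log2 fold changes of 1.06 (standard error 0.46) and -0.53 (0.17) and adjusted p-values of 1 and 0.0987 by edgeR with Benjamini-Hochberg. The former was 0.76 and 1.26 without miR-23a KO replicate 1 or 2, and the second of these was called, and without Scr replicate 1 or 2 the latter was -0.31 and -0.72, both called. The KO groups differed by 1.54 log2 units in PFKFB4 (standard error 0.36), not called at an adjusted p of 0.263 by edgeR with Benjamini-Hochberg. This difference was called with GC content and length corrected (adjusted p = 0.0336) and with a replicate block added to that (0.00601). It was not called with the block alone (0.403) or by DESeq2 (0.0718), each of these with Benjamini-Hochberg and the others by edgeR. Without miR-23a KO replicate 1 or 2 the difference was 1.23 and 1.79.

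PFKFB1, the isoform of liver and muscle, was at 3.55 and 6.15 CPM in Scr, 4.41 and 2.15 for miR-23a KO, and 2.12 and 1.75 for miR-27a KO. Its log2 fold change of -1.33 in miR-27a KO (standard error 0.39) was not called, at an adjusted p of 0.0834 by edgeR with Benjamini-Hochberg. The value was -1.66 with an adjusted p of 0.00254 without Scr replicate 1, and without Scr replicate 2 it was -0.88 and not called, in a range up to 0.675 over the alternatives (edgeR or DESeq2 with Benjamini-Hochberg). PFKFB2, the heart isoform, was at 11.3 and 20.1 CPM in Scr, 6.09 and 8.02 for miR-23a KO, and 14.7 and 16.1 for miR-27a KO. Both miR-23a KO libraries lay below the other 4. The log2 fold change of PFKFB2 was -1.08 (standard error 0.59) for miR-23a KO and -0.03 (0.29) for miR-27a KO, not called in either. The former was -1.47 and -0.59 without Scr replicate 1 or 2. Without Scr replicate 1 or 2 the latter was -0.38 and 0.45, and either was called. PFKM and PFKP, the muscle and platelet phosphofructokinases, were not called, at -0.78 and -0.37 in miR-27a KO and -0.59 and -0.13 in miR-23a KO on the log2 scale, though PFKP in miR-27a KO was at 0.07 without Scr replicate 1 and at -0.71, and called, without Scr replicate 2.

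**Figure D5:**
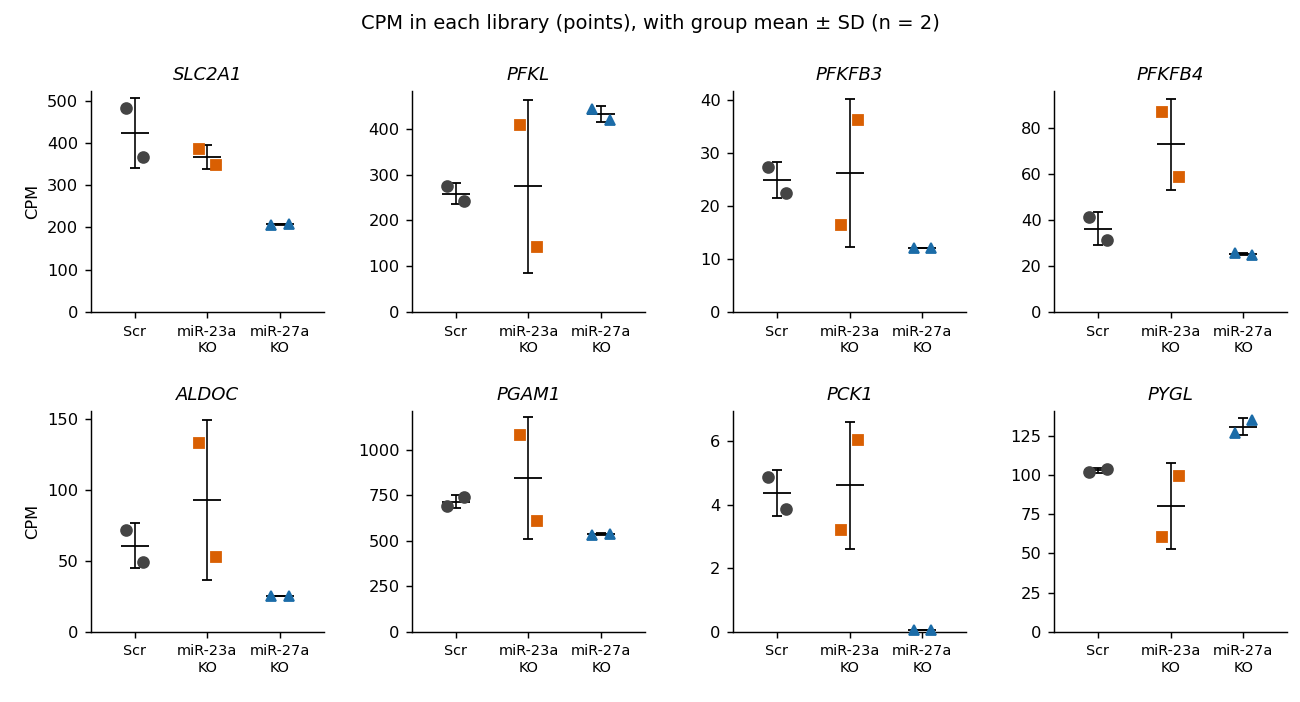
CPM of 8 members in each library (points, linear axis from 0) with the group mean and SD (n = 2 libraries). The miR-27a KO points lie below both other groups for SLC2A1, PFKFB3, PFKFB4, ALDOC, PGAM1 and PCK1, and PYGL and PFKL are highest there. The miR-23a KO points lie over 2-fold apart for PFKL, PFKFB3 and ALDOC, and less far apart for the other genes shown.

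The lower glycolytic enzymes carry hexose phosphates to phosphoenolpyruvate and work in both directions. In miR-27a KO 9 of 9 log2 fold changes in this group were negative (median -0.12), but 4 of 9 with GC content and length corrected (median 0.04) and 4 of 9 without Scr replicate 1 (median 0.01). ALDOC, the brain-type aldolase, was at 72.1 and 49.5 CPM in Scr, 133 and 53 for miR-23a KO, and 25.3 and 25.4 for miR-27a KO. The miR-27a KO libraries were the lowest of the 6, and miR-23a KO overlapped with Scr. ALDOC fell by 1.27 on the log2 scale in miR-27a KO (standard error 0.2, adjusted p = 0.0212 by edgeR with Benjamini-Hochberg, lower in 2 of 2 libraries). Without miR-27a KO replicate 1 or 2 the adjusted p was 0.0599 and 0.0564, in a range of 1.23e-06 to 0.582 over 12 alternatives (edgeR or DESeq2 with Benjamini-Hochberg). Against miR-27a KO, ALDOC was 1.88 log2 units higher in miR-23a KO (standard error 0.54, adjusted p = 0.375 by edgeR and 0.0334 by DESeq2, both with Benjamini-Hochberg, in a range of 2.51e-10 to 1 over the alternatives). That value was 1.07 and 2.40 with miR-23a KO replicate 1 or 2 left out.

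PGAM1 converts 3-phosphoglycerate to 2-phosphoglycerate. Its CPM was 690.0 and 739.9 in Scr, 1082 and 608 for miR-23a KO, and 533 and 540.2 for miR-27a KO. Both values in miR-27a KO were the lowest, by a small margin. PGAM1 fell by 0.42 on the log2 scale (standard error 0.08, adjusted p = 0.0353 by edgeR with Benjamini-Hochberg, lower in 2 of 2 libraries). It had the highest adjusted p of the 6 called members, which was 0.0552 with no filter on low counts, 0.0562 with a replicate block, 0.187 with GC content and length corrected, 0.277 with that correction and the block, and 0.469 and 0.459 without miR-27a KO replicate 1 or 2, in a range of 5.37e-06 to 0.991 over 12 alternatives (edgeR or DESeq2 with Benjamini-Hochberg). The KO groups differed by 0.66 log2 units in PGAM1 (standard error 0.43), which was not called (adjusted p = 0.788 by edgeR with Benjamini-Hochberg). With miR-23a KO replicate 1 or 2 left out that difference was 0.18 and 1.02. Copies such as PGAM4 may share its reads.

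GAPDH was the study's reference gene for qPCR of messenger RNA, but not of microRNAs. Its level was 6160 and 5506 CPM in Scr, 12516 and 3990 for miR-23a KO, and 5334 and 5432 for miR-27a KO. The miR-23a KO libraries were the highest and the lowest of the 6. GAPDH was not called, with log2 fold changes of 0.53 (standard error 0.66) for miR-23a KO and -0.12 (0.11) for miR-27a KO, the latter 0.18 with GC content and length corrected. Without miR-23a KO replicate 1 or 2 the former was -0.50 and 1.10, so its direction followed the library kept, and without replicate 2 its adjusted p was 0.0162 by edgeR with Benjamini-Hochberg, the lowest of its 11 alternatives, whose highest was 1. Without Scr replicate 2 GAPDH was called in miR-27a KO at -0.20, and without Scr replicate 1 it was at -0.03 and not called. TPI1, which interconverts the triose phosphates, had the same shape at 1007 and 902 CPM in Scr, 2332 and 746 for miR-23a KO, and 907 and 912 for miR-27a KO. Its log2 fold changes were 0.72 (standard error 0.6) and -0.07 (0.09), neither called, and without miR-23a KO replicate 1 or 2 the former was -0.30 and 1.29, the second of which was called. Without Scr replicate 2 the log2 fold change of TPI1 in miR-27a KO was -0.15 and was called, but 0.01 and not called without Scr replicate 1. ALDOA, ENO1, ENO2, PGK1 and GPI were not called in either KO, though a replicate block called ENO2 lower in miR-27a KO (adjusted p = 0.0274 by edgeR with Benjamini-Hochberg). In miR-27a KO their log2 fold changes ran from -0.59 for ENO2, the neuronal enolase, to -0.02 for ALDOA, the main aldolase, and DESeq2 called ENO2 lower (adjusted p = 0.0336 with Benjamini-Hochberg, against 0.102 by edgeR, in a range of 6.97e-06 to 0.826 over 12 alternatives). Without Scr replicate 2 all 5 lay between -0.85 for ENO2 and -0.19 for ALDOA in miR-27a KO. Without Scr replicate 1 they lay between -0.28 for ENO2 and 0.17 for ALDOA. In miR-23a KO ALDOA was at -0.39 and 1.06 without replicate 1 or 2 of that group, and the second of these was called.

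Promoters of glycolytic genes are known for E-box and hypoxia response elements, which share the letters ACGTG, or CACGT on the other strand. In the RefSeq table on GRCh38.p14, 29 of the 33 members had a promoter entry of 300 bases, and PFKFB2, PCK1, SLC2A3 and GYS2 had none. Either string occurred in 19 of 58 member promoters (32.8%) and in 21.4% of all 35116, and in the first listed promoter of 10 of 29 members (34.5%) and of 21.6% of 27305 genes. The 6-base palindrome CACGTG, which contains both strings, occurred in 7 of 58 member promoters (12.1%; 7.26% of all), those of HK2, PFKFB3, ALDOA, ALDOC, GAPDH, PKLR and LDHA. Of these PFKFB3 and ALDOC fell in miR-27a KO and the other 5 were not called. Over all genes 9.12% were called lower and 4.91% higher. The calls of PFKFB3 and ALDOC depended on how the miR-27a KO libraries entered the fit, as given above. The sequences of ALDOC and LDHA are shown as examples. They give the 250 bases before the start, 5' to 3' on the strand of the gene, with these strings in capitals, at chr17:28576896-28577145 (minus strand) for ALDOC and chr11:18394313-18394562 (plus strand) for LDHA.
ALDOC: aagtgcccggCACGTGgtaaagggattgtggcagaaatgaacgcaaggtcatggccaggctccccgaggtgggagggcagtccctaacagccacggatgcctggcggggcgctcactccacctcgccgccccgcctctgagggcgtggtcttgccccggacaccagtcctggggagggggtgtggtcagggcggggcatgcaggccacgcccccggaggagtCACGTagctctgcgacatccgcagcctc
LDHA: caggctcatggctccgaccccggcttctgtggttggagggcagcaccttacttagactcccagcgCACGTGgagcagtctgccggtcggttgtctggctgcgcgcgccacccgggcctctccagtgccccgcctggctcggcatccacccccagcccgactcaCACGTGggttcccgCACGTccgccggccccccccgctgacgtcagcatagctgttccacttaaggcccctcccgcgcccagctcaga
The stretches begin 240 and 28 bases before the start of ALDOC, and 185, 87 and 73 bases before that of LDHA. Binding of any factor was not measured.

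Pyruvate kinase makes pyruvate, and lactate dehydrogenase turns it to lactate. PKM, the form of growing cells, had log2 fold changes of 0.12 for miR-23a KO and -0.06 for miR-27a KO, and the latter was 0.11 and -0.21 without Scr replicate 1 or 2, either called. PKLR, the liver form, was at 49 and 73.5 CPM in Scr, 70.8 and 23.6 for miR-23a KO, and 43.6 and 44.3 for miR-27a KO. Those of miR-27a KO lay below Scr and those of miR-23a KO overlapped with it. The log2 fold changes of PKLR were -0.34 (standard error 0.58) and -0.48 (0.2), and neither was called. Without miR-23a KO replicate 1 or 2 the former was -1.32 and 0.21, and the first of these had an adjusted p of 0.0342 by edgeR with Benjamini-Hochberg, the lowest of 11 alternatives, whose highest was 1. Without Scr replicate 1 PKLR was called in miR-27a KO, at -0.74, and without Scr replicate 2 it was at -0.16 and not called. LDHA was almost level between Scr and miR-27a KO, with 1099 and 1110 CPM against 1109 and 1103, and its libraries in miR-23a KO were at 1145 and 1407. LDHB had 6 and 1 counts in Scr, 2 and 3 for miR-23a KO, and 0 and 2 for miR-27a KO, too few for a comparison.

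PCK1 gave the largest difference of the 29 members tested. The cytosolic PEPCK is the classic hormone-controlled enzyme of gluconeogenesis in liver. It had 70 and 57 counts in Scr, 42 and 112 for miR-23a KO, and 1 and 1 for miR-27a KO. The miR-27a KO libraries were thus far below the other 4, and the miR-23a KO libraries lay on both sides of Scr. Scaled for depth, the ratio of miR-27a KO to Scr was 0.0139 (95% counting interval 0.00166 to 0.0512), or 72.1-fold lower (19.5 to 601), and such intervals cover counting error only. The test called PCK1 lower (adjusted p = 0.00701 by edgeR with Benjamini-Hochberg, lower in 2 of 2 libraries), and its adjusted p over the 12 alternatives lay between 8.21e-06 and 0.039 (edgeR or DESeq2 with Benjamini-Hochberg). In miR-23a KO the ratio to Scr was 1.12 (0.876 to 1.42). Between the KO groups PCK1 had an adjusted p of 0.101 by edgeR and 0.000132 by DESeq2, both with Benjamini-Hochberg. A replicate block called it (4.42e-05 by edgeR with Benjamini-Hochberg), and median-ratio scaling (0.101) and testing with no filter on low counts (0.0938) did not. PCK1 was also not called with either miR-27a KO library left out (log2 fold change 6.09 and 6.08) or with that pair averaged (6.09). With each library left out in turn its log2 fold change, which depends on the prior count, ran from 5.55 to 6.48.

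PCK2, the mitochondrial PEPCK, was at 210.4 and 124 CPM in Scr, 175 and 68.1 for miR-23a KO, and 113 and 123 for miR-27a KO. In miR-27a KO both libraries lay below both of Scr, the higher just under Scr replicate 2, and miR-23a KO overlapped with Scr. Its log2 fold changes were -0.42 (standard error 0.55) for miR-23a KO and -0.51 (0.25) for miR-27a KO, with adjusted p-values of 1 and 0.22 by edgeR with Benjamini-Hochberg. Without miR-23a KO replicate 1 or 2 the former was -1.24 and 0.06, and the first of these was called. The latter was -0.08 without Scr replicate 1 and -0.84 without Scr replicate 2, and the second of these was called. PC, the pyruvate carboxylase that starts gluconeogenesis in mitochondria, was at 163 and 137 CPM in Scr, 129.5 and 92.6 for miR-23a KO, and 111 and 106 for miR-27a KO. All 4 KO libraries lay below Scr. The log2 fold change of PC was -0.38 (standard error 0.43) for miR-23a KO and -0.46 (0.11) for miR-27a KO, the latter at an adjusted p of 0.0509 by edgeR and 0.0199 by DESeq2, both with Benjamini-Hochberg, in a range of 2.23e-05 to 0.937 over 12 alternatives. That value for PC was -0.33 and -0.58 without Scr replicate 1 or 2, both called, and -0.18 and not called with GC content and length corrected. With a replicate block PC was called lower in miR-27a KO (adjusted p = 0.0286 by edgeR with Benjamini-Hochberg). FBP1, which hydrolyses fructose 1,6-bisphosphate on the way to glucose, had 7 and 5 counts in Scr, 6 and 1 for miR-23a KO, and 3 and 5 for miR-27a KO, so a difference was not detectable at this depth.

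Glycogen is built by GYS2 and broken down by PYGL in liver. PYGL was at 102 and 104 CPM in Scr, 60.7 and 99.6 for miR-23a KO, and 127 and 135 for miR-27a KO. The miR-27a KO libraries were the highest of the 6 and the miR-23a KO libraries the lowest. PYGL just missed the threshold in miR-27a KO, at 0.35 log2 units above Scr (standard error 0.08, adjusted p = 0.0501 by edgeR with Benjamini-Hochberg). Its adjusted p ran from 0.000898 without Scr replicate 2 to 0.991 with all 6 libraries in the fit, and was 0.0329 with GC content and length corrected and 0.0013 without Scr replicate 1 (edgeR or DESeq2 with Benjamini-Hochberg). In miR-23a KO its log2 fold change was -0.28 (standard error 0.47), and without replicate 2 of that group it was -0.77 and was called, but 0.00 and not called without replicate 1. GYS2 had 5 and 17 counts in Scr, 3 and 5 for miR-23a KO, and 0 and 0 for miR-27a KO, and was not tested.

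Other genes of sugar metabolism were read from 7 lists with 120 genes, of which 118 were in the table. In miR-27a KO 4 of the 100 tested rose and 11 fell at an adjusted p under 0.05 (edgeR with Benjamini-Hochberg), beside 4.91% and 9.12% of all genes. Without either miR-27a KO library, or with that pair averaged, CREB3L3 was the sole one of the 15 still called. The shares of all genes called higher and lower were then 0.586% and 1.93% without replicate 1, 0.608% and 1.92% without replicate 2, and 0.543% and 1.76% with the averaged pair. With all 6 libraries in the fit 0 of the 15 were called (0.0212% and 0.431% of all genes), and with no filter on low counts 7 were (1.87% and 3.53%), with ADM, FOXO3, PPARGC1A, PPP1R3G, PYGB, SLC2A11, SLC2A14 and TXNIP lost. DESeq2 called 5 higher and 13 lower (5.71% and 10.5% of all genes), and 15 and 20 reached an unadjusted p under 0.05 by edgeR (13.8% and 18.4%). In miR-23a KO 0 of 102 were called in either direction by edgeR, where an unadjusted p under 0.05 was reached by UGP2 higher (0.856% of genes) and by G6PC, HKDC1 and PPARGC1A lower (1.55%), and DESeq2 called PPARGC1A lower (0.428%). Between the KO groups 0 of 101 were called by edgeR, with 2 higher and 8 lower at an unadjusted p under 0.05 (4.66% and 4.06% of genes), and DESeq2 called CREB3L3 higher and EGLN3 and PPARGC1A lower (1.87% and 1.58%).

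Among regulators, 2 of 23 tested were called higher and 3 lower in miR-27a KO, beside 4.91% and 9.12% of all genes. The glucose-responsive arrestins TXNIP and ARRDC4, which restrain glucose uptake, fell by 1.31 and 1.42 on the log2 scale, the former by 0.84 and 1.66 without Scr replicate 1 or 2. Without either miR-27a KO library neither was called. CREB3L3, a liver transcription factor of fasting, fell by 1.39 (standard error 0.14, adjusted p = 0.00857 by edgeR with Benjamini-Hochberg), and its adjusted p was 0.0256 and 0.0281 without miR-27a KO replicate 1 or 2, in a range of 1.59e-10 to 0.169. FOXO3 rose by 0.71. PPARGC1A, a coactivator that drives PCK1 in fasting liver, had 16 and 44 counts in Scr, 0 and 0 for miR-23a KO, and 162 and 153 for miR-27a KO. It thus had no count in miR-23a KO and lay above both Scr libraries in miR-27a KO, where it rose by 2.21 log2 units (standard error 0.46, adjusted p = 0.0374 by edgeR with Benjamini-Hochberg). That rise was 1.68 without Scr replicate 1 and 3.08 without Scr replicate 2. At a floor of 3 counts over the group, PPARGC1A was at least 21.7-fold lower in miR-23a KO than in Scr (11.8-fold against Scr replicate 1 alone and 31.4-fold against replicate 2 alone) and at least 101-fold lower than in miR-27a KO. Without miR-27a KO replicate 1 or 2 the adjusted p of PPARGC1A was 0.118 and 0.0969, in a range of 3.63e-05 to 0.347 over 12 alternatives (edgeR or DESeq2 with Benjamini-Hochberg). In miR-23a KO its adjusted p was 0.46 by edgeR and 0.0255 by DESeq2, both with Benjamini-Hochberg, in a range of 0.00732 with a replicate block to 0.788 over 11 alternatives, and it was called without replicate 1 and without replicate 2 of that group. Between the KO groups PPARGC1A was called in 10 of 12 alternatives, at adjusted p-values from 2.84e-09 with a replicate block to 0.0997 with median-ratio scaling, while the usual fit gave 0.099 (edgeR or DESeq2 with Benjamini-Hochberg).

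Of the other transporters, SLC2A11, SLC2A14 and the carrier partner BSG fell by 0.88, 0.69 and 0.80 on the log2 scale in miR-27a KO and the lactate carrier SLC16A1 rose by 0.67. SLC2A14 thus fell where its near copy SLC2A3 had a log2 fold change of 0.43. In the glycogen list PYGB, the brain phosphorylase, fell by 0.44 and the phosphatase subunit PPP1R3G by 2.11, on 5 and 8 counts in miR-27a KO. With GC content and length corrected PYGB was at -0.18 and PPP1R3G at -1.89, and neither was called. DESeq2 did not call PPP1R3G either (adjusted p = 0.114 with Benjamini-Hochberg). Of the fructose genes, AKR1B1, which reduces glucose to sorbitol, fell by 1.01, and SORD, which oxidizes sorbitol to fructose, rose by 0.74. TIGAR, a fructose 2,6-bisphosphatase, fell by 0.89. Of the hypoxia-responsive genes outside sugar metabolism ADM fell by 0.94 and 13 of 14 were not called, beside 9.12% of all genes called lower and 4.91% higher. Among those not called, EGLN3 was at 0.58, but at 3.44 and -0.32 without Scr replicate 1 or 2. DDIT4 of that list had a log2 fold change of -0.91 in miR-23a KO (standard error 0.58), not called, and without miR-23a KO replicate 1 it was -1.76 and was called, but -0.41 without replicate 2 of that group and -0.32 without Scr replicate 1, neither called. For the genes called in miR-27a KO these adjusted p-values lay between 0.00888 for SORD and 0.0469 for PPP1R3G (edgeR with Benjamini-Hochberg). With either miR-27a KO library left out, none of these transporter, glycogen, fructose, TIGAR and ADM calls held.

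G6PC, the glucose 6-phosphatase that releases free glucose from the liver, had 27 and 31 counts in Scr, 2 and 7 for miR-23a KO, and 24 and 25 for miR-27a KO. Both miR-23a KO libraries lay below the other 4. The log2 fold change of G6PC in miR-23a KO was -2.75 (standard error 0.88), not called at an adjusted p of 1 by edgeR with Benjamini-Hochberg. With replicate 1 of that group left out it was -2.32 and not called, and with replicate 2 left out it was -3.63 and was called. UGP2, which makes the sugar donor of glycogen, was at 83.6 and 187 CPM in miR-23a KO against 50.1 and 63.1 in Scr, a log2 fold change of 1.35 that was not called, and without miR-23a KO replicate 1 it was 1.78 and was called, but 0.56 and not called without replicate 2. Of the genes of pyruvate entry into mitochondria, 0 of 11 were called by edgeR in miR-27a KO, where PDK1, a kinase that shuts pyruvate dehydrogenase, had the largest log2 fold change of 0.64 (adjusted p = 0.0539 with Benjamini-Hochberg). In this list DLD and PDK1 were higher at an unadjusted p under 0.05 and DESeq2 called 0, and without Scr replicate 1 or 2 PDK1 was called, at 0.77 and 0.52, and with GC content and length corrected it was at 0.42 and not called. PDHX, a subunit of pyruvate dehydrogenase, was 0.50 log2 units higher in miR-23a KO than in miR-27a KO (standard error 0.45), not called, and without miR-23a KO replicate 1 it was 0.92 and was called. Without replicate 2 of that group it was -0.08 and not called, so its direction followed the library kept.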

How the data were processed

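RNA-seq libraries were made with a TruSeq Stranded mRNA kit and read as paired ends. The values the authors deposited were taken to be expected counts per gene, not scaled for depth or length. This is an inference, since the column names say FPKM, but totals differ between libraries and many values are whole. Every test rests on it. The submitters' processing notes name HISAT, StringTie, Cufflinks and GATK. Versions, genome build, use of strand in counting and treatment of shared reads are not given in the sources used here.

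Values were rounded to whole counts. Genes were filtered with filterByExpr, scaled by TMM and tested by the quasi-likelihood F-test of edgeR 4.0.16 in R 4.3.3, each pair of groups on its own, with Benjamini-Hochberg adjustment over all genes tested. A call was an adjusted p under 0.05. Steps were tested on simulated data. GENCODE release 29 gave lengths and GC content for 17907 genes (89.4%) and 3'-UTRs for 15888 genes, and all of these for each member. A match count covers exact strings.

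Other settings tried were DESeq2 1.42.0, median-ratio scaling, testing with no filter, all 6 libraries in 1 fit, a replicate block, GC content and length corrected by loess (span 0.5, degree 2), each library left out, the study's thresholds, and, chosen after seeing the data, both miR-27a KO libraries averaged. In fits with a single library in a group, it is assumed to vary like the other group.

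Members and lists were chosen with earlier results of these data known. Named members were those called in any comparison, GAPDH, and the member with the largest absolute log2 fold change of each role in each KO comparison. From each pathway list the genes called were named, or else the gene with the largest absolute log2 fold change. Names of other genes were chosen after their values were seen.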

Additional observations from a re-analysis of the deposited data

Results flagged for a closer look

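For 6 of the genes described, both miR-23a KO libraries and both miR-27a KO libraries lay on opposite sides of the Scr libraries, which 859 of 13841 genes (6.21%) did. They were 2 of 29 members tested (6.9%) and 4 of 23 named pathway genes, which were picked by size, while 7 of 101 listed pathway genes tested (6.93%) did so, shares near that of all genes. The difference between the KO groups was tested directly, by edgeR with Benjamini-Hochberg adjustment, and is given as the log2 fold change of miR-23a KO against miR-27a KO. The choice of genes by side already fixed the sign of each difference, so these tests add no separate evidence that the KO groups differ. Calls with a miR-23a KO library left out rest on the spread of the close miR-27a KO pair alone and were not read as support. PFKFB4 was above Scr in miR-23a KO and below in miR-27a KO, with a difference of 1.54 (standard error 0.36, adjusted p = 0.263 by edgeR with Benjamini-Hochberg). Over 12 alternatives that p ran from 5.2e-09 to 1 and the difference was called in 4, which were GC content and length corrected (0.0336), the same with a replicate block (0.00601), and miR-23a KO replicate 1 or 2 left out (edgeR or DESeq2 with Benjamini-Hochberg). CREB3L3 lay on the same sides as PFKFB4 and differed by 1.72 (standard error 0.33, adjusted p = 0.176 by edgeR with Benjamini-Hochberg, in a range of 3.63e-09 to 1). CREB3L3 was called in 4 of 12, by DESeq2 (0.0182 with Benjamini-Hochberg), with the correction and block, and with miR-23a KO replicate 1 or 2 left out. PYGL was below Scr in miR-23a KO and above in miR-27a KO, at -0.71 (standard error 0.39, adjusted p = 0.74 by edgeR with Benjamini-Hochberg, in a range of 6.71e-08 to 1). H6PD, the hexose 6-phosphate dehydrogenase of the endoplasmic reticulum, was at -0.97 and SORD at -1.07, on the sides of PYGL (adjusted p = 0.496 and 0.401 by edgeR with Benjamini-Hochberg, in ranges of 1.83e-09 to 1 and 4.64e-09 to 1). PYGL, H6PD and SORD were each called in 2 of 12 alternatives, with miR-23a KO replicate 1 or 2 left out. PPARGC1A was at -10.27 (adjusted p = 0.099 by edgeR with Benjamini-Hochberg), a fitted value that depends on the prior count because both miR-23a KO libraries had 0 counts. It was called in 10 of 12 alternatives, with a lowest adjusted p of 2.84e-09 and a highest of 0.0997, and not with median-ratio scaling or without the filter on low counts (edgeR or DESeq2 with Benjamini-Hochberg).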

How the results depend on the processing

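The log2 fold changes of the 15 named members were recomputed under each alternative, the averaged miR-27a KO pair having been chosen after seeing the data. Of 165 values for miR-23a KO against Scr, 140 kept their direction and side of the threshold, 8 passed it in the same direction and 17 changed sign, 1 of which was called (PFKL without miR-23a KO replicate 1). Of 180 for miR-27a KO against Scr, 136 kept both, 24 lost the call, 12 gained it in the same direction and 8 changed sign, 1 of which was called (PFKFB2 without Scr replicate 2). Of 180 between the KO groups, 139 kept both, 29 gained a call in the same direction and 12 changed sign. Of these 5 were called, TPI1, GAPDH, PKLR and PCK2 without miR-23a KO replicate 1 and SLC2A3 without replicate 2. The causes were not tested.

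In miR-23a KO against Scr, PFKL was at -0.04 with a replicate block, -0.05 with GC content and length corrected and -0.06 with both, and SLC2A1 at 0.00 with the correction and 0.01 with both. In miR-27a KO, PFKFB2 was at 0.02 with the block, and TPI1 was at 0.21 and GAPDH at 0.18 with the correction, with or without the block. Between the KO groups, PKLR was at -0.10 with the block, -0.11 with the correction and -0.18 with both, and PCK2 at -0.10, -0.35 and -0.35. The log ratios of replicates with the same number correlated across genes at 0.217, -0.00627 and 0.0207 in the 3 comparisons, where genes are not independent, and what the shared numbers stand for is not stated.

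In miR-27a KO against Scr, 0 members were called higher and 1 lower with all 6 libraries in the fit (0.0212% and 0.431% of all genes) and with the averaged pair (0.543% and 1.76%). With the correction 2 were higher and 4 lower, both without the block (8.1% and 7.71%) and with it (9.09% and 8.59%), and 0 and 0 at the study's thresholds. With no filter on low counts the median was -0.35 over all 33 members and -0.19 over the same 29 as before. Between the KO groups, members called higher were 2 by DESeq2 (1.87% of all genes), 1 with all 6 libraries (0.77%), 1 with the block (1.52%), 2 with the correction (1.08%) and 3 with both (3.2%), and 0 were lower in each (1.58%, 0.77%, 1.37%, 1.21% and 3.52%).

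With each library left out in turn, values ran from lowest to highest as follows. In miR-23a KO against Scr, 0 to 7 members were higher and 0 to 3 lower, with a median of -0.24 to 0.21. There PFKL ran from -0.82 to 0.66, PFKFB1 from -1.12 to -0.07, PFKFB3 from -0.60 to 0.59, ALDOC from -0.14 to 1.13, TPI1 from -0.30 to 1.29, GAPDH from -0.50 to 1.10 and PGAM1 from -0.18 to 0.60. PKLR ran from -1.32 to 0.21, PCK1 from -0.45 to 0.52, PCK2 from -1.24 to 0.06, SLC2A1 from -0.33 to 0.04, SLC2A3 from -0.09 to 1.19 and PYGL from -0.77 to 0.00. In miR-27a KO against Scr, 0 to 6 members were higher and 1 to 19 lower, PFKFB2 ran from -0.38 to 0.45 and TPI1 from -0.15 to 0.01. Between the KO groups, 0 to 19 members were higher and 0 to 14 lower, with a median of -0.02 to 0.43. PFKL ran from -1.61 to -0.08, PFKFB1 from 0.16 to 1.19, PFKFB3 from 0.45 to 1.59, ALDOC from 1.07 to 2.40 and PGAM1 from 0.18 to 1.02. TPI1 ran from -0.28 to 1.36, GAPDH from -0.43 to 1.22, PKLR from -0.89 to 0.69, PCK2 from -0.79 to 0.58 and SLC2A3 from -0.51 to 0.70. A group left with a single library is assumed to vary like the other. With 2 libraries per group, and fewer than 10 counts in each library for HK1, LDHB and FBP1, differences in these were not detectable at this depth.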
